A study of Mus musculus with 2 samples.

Results

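The genes described here are the semaphorins, plexins, Slits, Robos and netrins, chosen by gene symbol alone. The symbol had to be Sema or Ntn followed by a digit, Plxna to Plxnd with an optional digit, Slit1 to Slit3 or Robo1 to Robo4. Of the 21951 gene expression features, 40 met this rule, and they comprised 20 semaphorins, 9 plexins, 3 Slits, 4 Robos and 4 netrins. They were followed in endothelial cells of the postnatal mouse heart and liver. The cells came from pups labelled C57BL/6 that carried Cdh5-CreERT2, which drives tamoxifen-dependent Cre in endothelial cells, and that were given 40 mg/kg of 4-hydroxytamoxifen on postnatal day 3. Tissues were taken 3 days later, when the labels give an age of P6 to P7. Cells of 6 groups (control, iSuRe-Cre and iSuRe-HadCre, each in heart and liver) were tagged with hashtag antibodies, sorted by CD31 and membrane Tomato, and pooled in 1 droplet library. Once CreERT2 has recombined them, the iSuRe-Cre and iSuRe-HadCre alleles both drive further Cre and a membrane Tomato reporter. In iSuRe-Cre, reporter and Cre are expressed together and permanently. In iSuRe-HadCre, Cre is transient, because the recombinase FlpO, expressed with it, deletes both and thereby turns the reporter on. A drawing in the study places floxed Notch1 alleles on the iSuRe groups and not on the control. The labels do not mention these alleles and give 1 genotype for the whole library. The other alleles of the control and the number of pups behind each group were not given in the sources used here.

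Semaphorins are guidance cues, some secreted (the Sema3 genes) and some anchored in the membrane (Sema4 to Sema7a), and most signal through plexins, with neuropilins as co-receptors for the secreted ones. Slits are secreted ligands of Robo receptors, and netrins are laminin-related ligands of Dcc, Neo1 and the Unc5 receptors. All were first known from the guidance of axons. In blood vessels, Plxnd1 is the endothelial receptor of Sema3e, Robo4 is an endothelial member of the Robo family, and these pathways steer sprouting and barrier function.

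Each group was 1 sample of pooled cells. There is therefore no test between groups, and every interval below is an exact 95% Poisson or conditional interval for counting error only. A cell was placed in a group when 1 hashtag passed its limit and the other 5 did not, and it was kept when it had at least 1 unique molecular identifier (UMI) of Cdh5, which codes for VE-cadherin. Values given below in sets of 3 for an organ stand in the order control, iSuRe-Cre, iSuRe-HadCre. The limits left 255, 437 and 319 heart cells and 61, 903 and 84 liver cells, with 838074 to 10253165 gene UMIs per group. The median cell held 16398 UMIs in iSuRe-Cre heart and 7392 to 9086 in the other groups. Notch1 stood at 137 UMIs per 1000000 gene UMIs (CPM) in control heart and 143 in control liver, and at 12.9 to 33.5 CPM in the 4 iSuRe groups. Tomato, the reporter of both alleles, stood at 97.7, 25.5 and 255 CPM in the 3 heart groups and at 62, 31.6 and 154 CPM in the 3 liver groups. WPRE, another transgene sequence, stood at 563, 63 and 1021 CPM in heart and at 338, 99.1 and 867 CPM in liver. Both were thus lower in the iSuRe-Cre groups than in the controls of the same organ. Pecam1, a defining endothelial marker, was at 451 to 842 CPM, against 203 CPM in free RNA, the RNA outside cells measured in barcodes of 10 to 100 UMIs. Markers of other cells also moved between groups. The 7 neutrophil markers summed to 9906, 5420 and 3955 CPM in the 3 liver groups, and the 5 lymphatic markers to 186 CPM in iSuRe-Cre heart and 435 in iSuRe-Cre liver, against 38.5 and 48.9 in the 2 controls and 160 in free RNA. Of the lymphatic markers, Ccl21a stood at 110 and 192 CPM in the iSuRe-Cre groups and had no UMI in control liver.

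The 40 genes gave 51524 UMIs over the 6 groups, and 86.7% of these belonged to the 14 with the most UMIs (Sema6a, Plxnd1, Robo1, Sema6d, Plxna4, Plxnc1, Robo2, Plxna2, Slit2, Robo4, Slit3, Sema3a, Sema5a and Ntn4). Of these 14, 8 span more than 200 kb of the genome, against 10 of all 40. Whether intronic reads were counted is not stated in the sources used here, so UMI numbers rank how well a gene was measured and not how much of its mRNA was present. Over the 6 groups together 36 of the 40 genes reached 20 UMIs, and the other 4 (Slit1 with 15 UMIs, Ntn5 and Plxnb3 with 7 each, Sema4f with 2) did not. With both intervals compared, that of the group and that of free RNA, Plxnd1 and Plxna4 lay above the free RNA level in all 6 groups, 9 genes did so in 1 to 5 groups, and 29 did so in none. Slit3, Sema3a and Sema5a lay below it in all 6. A gene with few UMIs can hardly lie clear of free RNA, since free RNA held 922778 gene UMIs and control liver 838074. These counts are not set against the shares of all features. In a summed group level, fewer cells of a type and less RNA per cell cannot be told apart, so levels within gated cells are given where there were enough.

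The genes fell along a range between being spread over most endothelial cells and being held by a few. Over the 2059 cells, the 103 cells (5%) with the most UMIs of a gene held 18.4% of all Plxnd1 UMIs, 19.5% of Sema6a, 24.1% of Robo4 and 24.3% of Plxna2. They held 57.3% of Robo1, 72.1% of Slit2, 76.1% of Sema3a, 76.8% of Slit3, 79.6% of Robo2 and 87.3% of Sema5a. A gene with few UMIs reaches a high share by construction, but Robo2 (2682 UMIs) and Plxna2 (2625 UMIs) were counted about equally often. Plxna2 was detected in 1196 cells with at most 16 UMIs in a cell, and Robo2 in 382 cells with up to 142.

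Many of the genes held by few cells went with fibroblast collagens. Of the 2059 cells, 211 (10.2%) had 5 or more UMIs of Col1a2 and Col3a1 together, a limit chosen after the values were seen. Sema5a was at 206 CPM in these collagen-positive cells and 7.1 in the other 1848, a ratio of 29 (24.4 to 34.5). Robo2 had a ratio of 9.28 (8.55 to 10.1), Sema3a 9.27 (8.32 to 10.3), Slit3 7.75 (6.98 to 8.6), Robo1 4.6 (4.33 to 4.89) and Slit2 3.77 (3.42 to 4.14). The receptors of the endothelium went the other way. Plxnd1 stood at 99.2 against 262 CPM, a ratio of 0.379 (0.344 to 0.416), and Robo4 at 19.6 against 68.8 CPM, a ratio of 0.285 (0.229 to 0.351). Sema3g was held by few cells as well, with 77.7% of its UMIs in the top 103, but had a ratio of 0.497 (0.351 to 0.687). Pecam1 itself had a ratio of 0.601 (0.573 to 0.631). Collagen-positive cells made up 8.24% to 14.8% of the cells of a group and 15.5% to 36.8% of its UMIs, the most in control liver. Whether such a barcode held a mixed cell, 2 cells or free RNA was not tested.

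**Figure D1:**
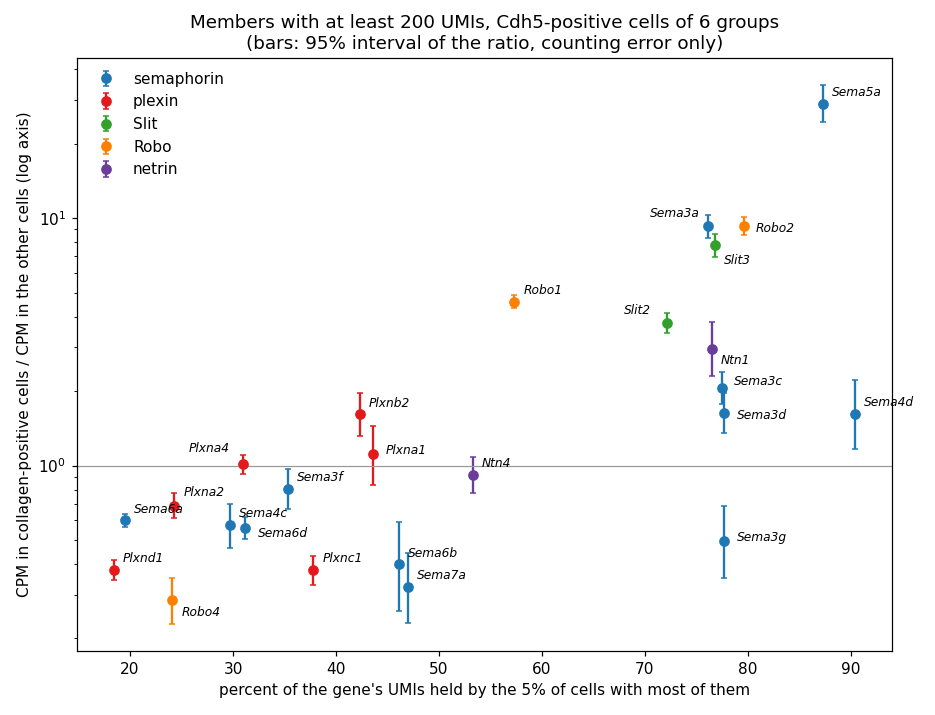
The share of each gene's UMIs held by the 5% of Cdh5-positive cells with most of them (horizontal axis) is plotted against the ratio of its CPM in collagen-positive cells to that in the other cells (vertical log axis), for the members with at least 200 UMIs. Plxnd1, Robo4 and Sema6a lie at the lower left, spread over cells and below a ratio of 1, and Sema5a, Robo2, Sema3a and Slit3 at the upper right.

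A gene was called past 2-fold when the log2 ratio of its CPM, with 10 CPM added to both groups, was at least 1 or at most -1, among features with 20 or more UMIs in the 2 groups together. The background is the share past 2-fold among all features tested in the same comparison. In iSuRe-Cre heart against control heart, 2 of 30 members tested were lower (Sema3g and Sema7a) and none higher, with a background of 2.23% past 2-fold, 0.753% lower and 1.47% higher. In iSuRe-HadCre heart against control heart 1 of 29 was higher (Sema3c) and none lower, with a background of 1.66% in all, 1.46% higher and 0.207% lower. In iSuRe-Cre liver against control liver 7 of 34 passed, Plxnc1 higher (background 2.12%) and Robo2, Slit2, Sema5a, Sema3c, Sema7a and Sema3g lower (background 2.4%), with 4.53% in all. In iSuRe-HadCre liver against control liver 2 of 24 were lower (Robo2 and Slit2) and none higher, with a background of 3.45% in all, 1.88% lower and 1.57% higher.

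Between the alleles, 5 of 31 members were higher in iSuRe-HadCre heart than in iSuRe-Cre heart (Robo1, Slit2, Sema3c, Sema7a and Sema3g) and none lower, with a background of 2.29% in all, 1.54% higher and 0.754% lower. In liver 3 of 34 passed, Sema7a and Sema3g higher (background 1.79%) and Plxnc1 lower (background 1.42%), with 3.21% in all. Between organs, 8 of 25 passed in control liver against control heart, Robo1, Plxnc1, Robo2, Slit2, Slit3, Ntn4 and Sema3c higher (background 4.79%) and Sema7a lower (background 1.96%), with 6.76% in all. In iSuRe-Cre liver against iSuRe-Cre heart 6 of 34 passed, Sema6a, Robo1, Plxnc1, Ntn4 and Sema3d higher (background 3.15%) and Sema7a lower (background 1.71%), with 4.86% in all. With 10 CPM added, thinly counted features can hardly pass, and the members tested are not matched to all features on their counts. Within an organ, both comparisons with control share that control, and the comparison between the alleles uses the same 2 iSuRe groups. The median log2 ratio of the members was -0.02, 0.31, -0.04 and 0.01 in the 4 comparisons with control, in the order above, against medians of -0.03, 0.10, -0.05 and 0.00 over all features.

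Sema3g and Sema7a were low in both organs of the iSuRe-Cre pups. Sema3g codes for a secreted semaphorin known from arterial endothelium, and Sema7a for a semaphorin held in the membrane by a glycolipid anchor. On GRCm38 they lie at chr14:31217860-31230352 and chr9:57940112-57962865. Across the 3 heart groups Sema3g stood at 35.5 CPM (29.2 to 42.9), 7.05 CPM (5.37 to 9.09) and 34 CPM (28 to 40.9). Across the 3 liver groups its levels were 37 CPM (25.1 to 52.5), 6.83 CPM (5.32 to 8.63) and 37 CPM (25.3 to 52.2). The 2 iSuRe-Cre intervals lay below those of the other 4 groups, which overlapped each other, and free RNA held 11.9 CPM. The ratio of iSuRe-Cre to control was 0.198 (0.142 to 0.275) in heart and 0.185 (0.119 to 0.292) in liver, while iSuRe-HadCre was 4.82-fold (3.49 to 6.72) and 5.41-fold (3.45 to 8.33) above iSuRe-Cre.

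Sema7a stood at 63.5 CPM (54.9 to 73.1), 20.7 CPM (17.7 to 24) and 52 CPM (44.6 to 60.4) in the 3 heart groups. Its liver levels were 25.1 CPM (15.5 to 38.3), 5.27 CPM (3.96 to 6.87) and 31.2 CPM (20.5 to 45.4), with 14.1 CPM in free RNA. Within each organ the iSuRe-Cre level was lowest and its interval did not meet the other 2, and within each pair of groups of 1 genotype the heart was above the liver. The ratio of iSuRe-Cre to control was 0.325 (0.264 to 0.402) in heart and 0.21 (0.125 to 0.366) in liver. iSuRe-HadCre exceeded iSuRe-Cre 2.52-fold (2.03 to 3.13) in heart and 5.92-fold (3.59 to 9.56) in liver.

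Both differences in heart were seen within 1 kind of endothelial cell. In heart cells gated as capillary (Fabp4 and Tcf15), Sema3g was at 24.5 CPM in 205 control cells, 6.39 in 340 iSuRe-Cre cells and 32.8 in 221 iSuRe-HadCre cells. Sema7a was at 62.5, 21.7 and 55.2 CPM in the same cells. The share of cells with a Sema7a UMI in the 3 heart groups was 39.6% (33.6 to 45.9, exact Clopper-Pearson interval), 29.1% (24.8 to 33.6) and 37% (31.7 to 42.5) as counted, although the iSuRe-Cre cells were the deepest, and 14.4%, 4.68% and 12.6% once each cell was thinned to 2000 UMIs. For Sema3g the counted shares were 22.4% (17.4 to 28), 6.64% (4.49 to 9.39) and 17.2% (13.3 to 21.8), and the thinned shares 8.05%, 1.32% and 7.15%. In mesenchymal-gated cells, which should lack both genes and held a median of 17022 UMIs, 1.69% had a Sema7a UMI and 0.726% a Sema3g UMI. In liver the calls rested on fewer UMIs: 3 cells held 58.1% of the 31 Sema3g UMIs of control liver and 50% of the 70 of iSuRe-Cre liver. Without those 3 cells of each group the liver log2 ratio of iSuRe-Cre to control was -0.99 for Sema3g and -0.74 for Sema7a, against -1.48 and -1.20 with them. With hashtag calls by HTODemux, the caller used in the study, the Sema7a log2 ratios were -0.80 in heart and -0.89 in liver, short of 2-fold. The Sema7a log2 ratio of iSuRe-HadCre to iSuRe-Cre heart, 1.02, stood at the limit and was 0.99 without the 3 cells and 0.99 with HTODemux. Markers of other endothelial cells also differed between the groups. The 7 large-vessel markers summed to 754, 522 and 588 CPM in the 3 heart groups and to 1221, 523 and 1136 CPM in the 3 liver groups, with 306 CPM in free RNA. The 7 sinusoidal markers were at 242, 4036 and 852 CPM in liver, and lymphatic markers were higher in both iSuRe-Cre groups, as given above. Cells gated as sinusoidal (Stab2 and Lyve1) were 0 of 61, 371 of 903 and 6 of 84 in the 3 liver groups. Over all cells of that gate Sema3g was at 1.61 CPM and Sema7a at 3.82 CPM. The liver levels of both genes above are for all Cdh5-positive cells, of mixed kinds. Among liver cells with no Stab2 UMI, 3 of 26 members tested were past 2-fold in iSuRe-Cre against control, with 3.68% of all features. Over all Cdh5-positive cells 7 of 34 were, with 4.53% of all features. The part of these markers and of the sinusoidal cells in the differences was not tested.

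The promoters of both genes are shown because both genes were lower in the same groups. They run from 250 bases before to 50 after the start of transcription, 5′ to 3′ on the gene's strand, from RefSeq on GRCm38.p6. Capitals mark matches on either strand to TGGGAA (the core of RBPJ, the DNA-binding partner of Notch), GGAAG (the ETS core) and ACAATG (a SOX core). The first is from chr14:31217623-31217922 and the second from chr9:57939862-57940161, both on the plus strand.
Sema3g: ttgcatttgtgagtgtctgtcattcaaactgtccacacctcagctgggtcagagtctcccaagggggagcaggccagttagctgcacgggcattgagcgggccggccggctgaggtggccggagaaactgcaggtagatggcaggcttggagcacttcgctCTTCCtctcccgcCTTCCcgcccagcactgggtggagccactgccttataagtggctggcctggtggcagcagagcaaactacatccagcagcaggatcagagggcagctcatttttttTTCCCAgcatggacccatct
Sema7a: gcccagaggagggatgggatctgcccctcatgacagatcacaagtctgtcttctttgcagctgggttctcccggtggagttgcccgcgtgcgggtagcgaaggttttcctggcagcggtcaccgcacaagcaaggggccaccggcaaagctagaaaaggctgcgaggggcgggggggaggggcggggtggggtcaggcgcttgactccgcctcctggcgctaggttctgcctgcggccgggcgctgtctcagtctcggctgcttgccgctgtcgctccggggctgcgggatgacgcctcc
The Sema3g window held 1 RBPJ match and 2 ETS matches, all on the reverse strand, and no SOX match. The Sema7a window held none of the 3 motifs. Over all 32851 promoters of the table, 25.6% held the RBPJ letters, 71.4% the ETS letters and 12.6% the SOX letters. Counted by gene, with a match in at least 1 window, these were 28.3%, 73.9% and 14.3% of 27025 genes, and 11, 27 and 6 of the 33 members with a promoter there. These letters recur by chance, and a match or its absence says nothing about binding.

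**Figure D2:**
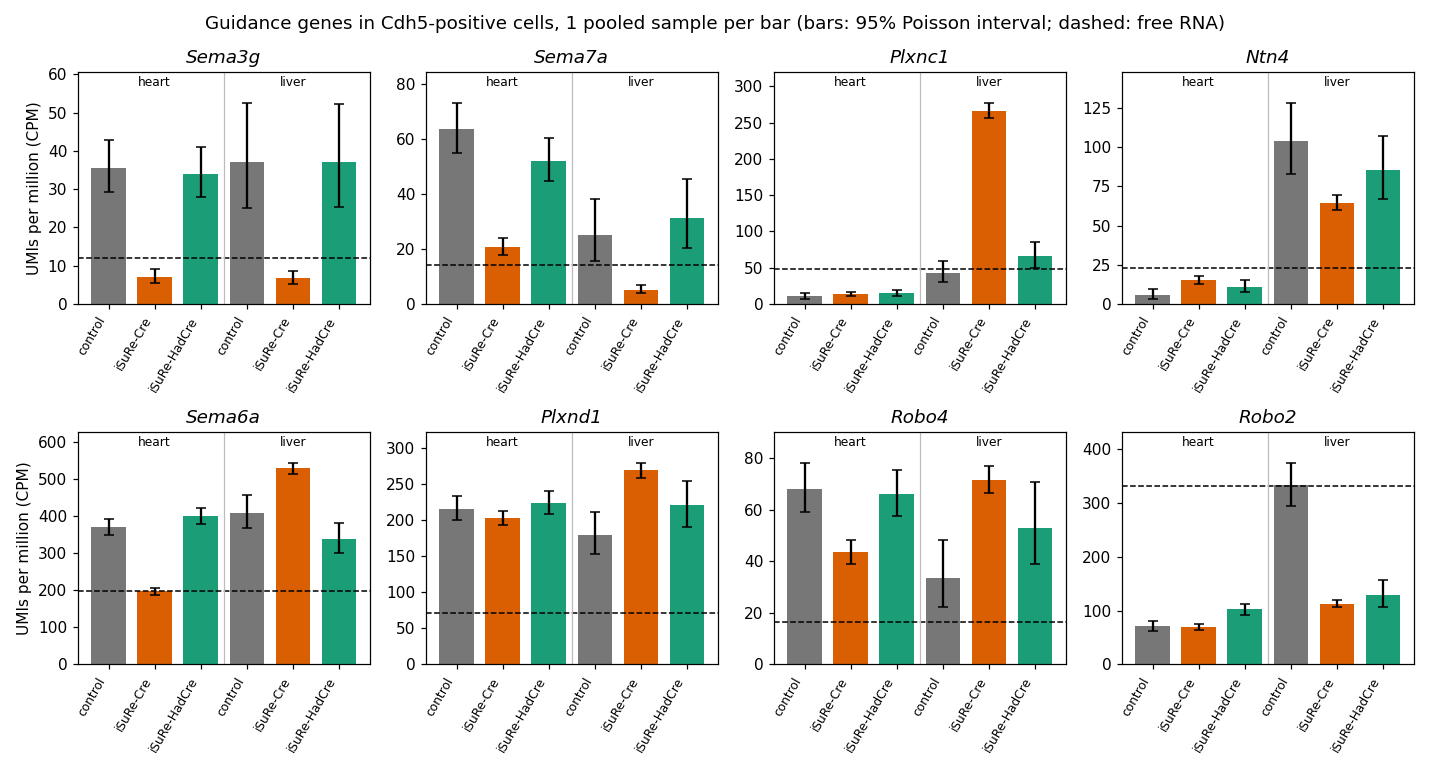
Bars give CPM in the Cdh5-positive cells of the 6 groups for 8 members, with exact 95% Poisson intervals, and the dashed line gives the free RNA level. Sema3g and Sema7a were lowest in the iSuRe-Cre group of each organ, Plxnc1 reached 266 CPM in iSuRe-Cre liver alone, and Robo2 in control liver was level with free RNA.

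Plxnd1 (chr6:115954811-115995005) and Robo4 (chr9:37401897-37415115) were above free RNA in most groups. Plxnd1 stood at 216, 203 and 224 CPM in heart and at 180, 269 and 221 CPM in liver, with 71.5 CPM in free RNA. Its ratios to control ran from 0.943 (0.861 to 1.03) in iSuRe-Cre heart to 1.49 (1.27 to 1.77) in iSuRe-Cre liver, and none was past 2-fold. Robo4 stood at 68.1, 43.5 and 66.2 CPM in heart and 33.4, 71.5 and 53.1 CPM in liver, against 16.3 CPM in free RNA. The iSuRe-Cre ratio to control was 0.639 (0.537 to 0.761) in heart and 2.14 (1.47 to 3.24) in liver, where the log2 ratio with 10 CPM added was 0.91 and so not past 2-fold. Pairs were formed of members with 200 or more UMIs over the 14 cell classes described below, not over the 6 groups. Of all such pairs, Plxnd1 and Robo4 had the highest Pearson's r over the classes (0.95, with a Spearman's rho of 0.89, of log2 CPM plus 10, over 14 classes of 1 library). By Spearman's rho, Slit2 with Sema6c (0.96) and Robo2 with Sema3e (0.90) stood higher. Their promoters, at chr6:115994956-115995255 on the minus strand and chr9:37401722-37402021 on the plus strand, are shown for that reason, with the same capitals.
Plxnd1: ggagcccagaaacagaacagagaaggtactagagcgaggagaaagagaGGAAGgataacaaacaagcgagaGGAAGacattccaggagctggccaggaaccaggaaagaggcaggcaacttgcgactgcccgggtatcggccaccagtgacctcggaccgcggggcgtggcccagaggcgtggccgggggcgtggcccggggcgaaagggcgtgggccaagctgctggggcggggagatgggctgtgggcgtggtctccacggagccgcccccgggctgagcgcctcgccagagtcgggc
Robo4: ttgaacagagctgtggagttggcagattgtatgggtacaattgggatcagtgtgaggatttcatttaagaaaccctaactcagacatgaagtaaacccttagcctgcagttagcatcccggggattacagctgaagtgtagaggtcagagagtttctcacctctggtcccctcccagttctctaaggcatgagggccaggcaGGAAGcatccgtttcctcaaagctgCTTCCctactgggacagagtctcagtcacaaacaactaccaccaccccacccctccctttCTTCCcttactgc
Plxnd1 had 2 ETS matches and Robo4 had 3, and neither had an RBPJ or SOX match.

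Sema6a, a transmembrane semaphorin, and its plexin receptors Plxna2 and Plxna4 were counted in most cells too. Sema6a stood at 371, 197 and 401 CPM in heart and at 410, 529 and 339 CPM in liver, and free RNA held 197 CPM. The iSuRe-Cre heart level, equal to that of free RNA, was 0.532-fold control (0.493 to 0.574), a log2 ratio of -0.88 that was not past 2-fold, and in capillary-gated heart cells the ratio was 0.5 (0.459 to 0.544). In iSuRe-Cre pups Sema6a was 2.68-fold (2.54 to 2.84) higher in liver than in heart, past 2-fold. In capillary-gated cells it was at 360 against 188 CPM, a ratio of 1.92 (1.74 to 2.12) whose log2 of 0.90 was not past 2-fold, and iSuRe-Cre liver held 371 sinusoidal cells with Sema6a at 660 CPM. Plxna2 ranged from 70.4 CPM in control liver to 129 in iSuRe-HadCre heart, and Plxna4 from 111 in control liver to 163 in iSuRe-HadCre heart. Sema6d, another transmembrane semaphorin, was 1.85-fold control (1.63 to 2.11) in iSuRe-HadCre heart at 216 against 116 CPM. Plxna2, Plxna4 and Sema6d were past 2-fold in none of the 8 comparisons.

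Plxnc1, the plexin that binds Sema7a (chr10:94790866-94944835), was highest in iSuRe-Cre liver. It stood at 10.5, 13.9 and 15 CPM in heart, below the 47.7 CPM of free RNA, and at 43, 266 and 65.8 CPM in liver. The iSuRe-Cre liver level lay clear of free RNA, 6.2-fold (4.47 to 8.88) above control liver and 19.2-fold (16 to 23.4) above iSuRe-Cre heart. Plxnc1 was at 481 CPM in the 371 cells of iSuRe-Cre liver gated as sinusoidal (Stab2 and Lyve1), the lining of the liver's sinusoids. Control liver held 0 such cells of 61, and iSuRe-HadCre liver 6 of 84. For the control share, 3 cells of 61 (4.92%) was taken as an approximate upper limit, which is not an exact interval. Among liver cells with no Stab2 UMI, Plxnc1 was at 42.2 CPM in 48 control cells and 43 CPM in 262 iSuRe-Cre cells, a ratio of 1.02 (0.668 to 1.61). In capillary-gated liver cells it was at 20.8 CPM in 16 control cells and 46.8 CPM in 126 iSuRe-Cre cells, and the interval of the ratio, 0.926 to 7.15, held 1. iSuRe-HadCre liver stood at 0.247-fold (0.187 to 0.321) iSuRe-Cre liver over all Cdh5-positive cells and at 0.588-fold (0.319 to 1.01) among those with no Stab2 UMI. The 7 sinusoidal markers summed to 242, 4036 and 852 CPM in the 3 liver groups.

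Ntn4 (chr10:93640681-93747207), a secreted netrin found in vascular basement membranes, was also higher in liver. It stood at 5.92, 15.2 and 11.1 CPM in heart and at 104, 64.6 and 85.4 CPM in liver, with 22.8 CPM in free RNA. All 3 liver levels lay above free RNA and no heart level did, and the liver to heart ratio was 17.5 (10.5 to 30.9) in controls and 4.25 (3.51 to 5.19) in iSuRe-Cre. In liver cells with no Stab2 UMI it stood at 106, 64.2 and 50.6 CPM, and in the sinusoidal cells of iSuRe-Cre liver at 47.1 CPM. Sema3d, a secreted semaphorin, was 3.53-fold (2.77 to 4.55) higher in iSuRe-Cre liver than in iSuRe-Cre heart, at 34.6 against 9.8 CPM, with 30.3 CPM in free RNA.

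For the Slits, Robo1, Robo2 and Sema3c, a few cells held many of the UMIs in some groups. Slit2 and Slit3 are secreted ligands, Robo1 and Robo2 are their receptors, and Sema3c is a secreted semaphorin known from the developing outflow tract. Robo2 stood at 70.4, 68.9 and 102 CPM in heart and at 333, 113 and 129 CPM in liver, with 331 CPM in free RNA. Control liver was thus the high group, 4.73-fold above control heart, but 3 of its 61 cells held 200 of its 279 Robo2 UMIs. Without the 3 cells with most Robo2 UMIs in each group, control liver was at 103 CPM and the log2 ratio to it was -0.25 in iSuRe-Cre liver and -0.13 in iSuRe-HadCre liver, against -1.48 and -1.30 with them. Without the collagen-positive cells the ratios were -0.35 and 0.50. Control liver stayed past 2-fold above control heart without the 3 cells, at 103 against 39.8 CPM and a log2 ratio of 1.19, against 2.09 with them.

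Robo1 rested on few cells in iSuRe-HadCre heart. It stood at 88.2, 78.4 and 169 CPM in the 3 heart groups and 307, 207 and 319 CPM in liver, with 373 CPM in free RNA, and 1 cell of iSuRe-HadCre heart held 178 of that group's 561 UMIs. Its log2 ratio of iSuRe-HadCre to iSuRe-Cre heart was 1.02, and it was 0.72 without the 3 cells and 0.21 without the collagen-positive cells. Sema3c stood at 13.5, 21.4 and 56.5 CPM in heart and 104, 30.8 and 57.7 CPM in liver, with 109 CPM in free RNA. In control liver 3 cells held 61 of the 87 Sema3c UMIs, and without the 3 cells of each group the log2 ratio of iSuRe-Cre to control liver was -0.30, against -1.48. The excess of Sema3c in iSuRe-HadCre heart over control heart, 4.19-fold (2.98 to 6.03), was larger without the 3 cells (log2 ratio 1.69, against 1.50) but was -0.39 with hashtag calls by HTODemux.

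Slit2 stood at 52.7, 36 and 105 CPM in heart and 205, 66.2 and 79.7 CPM in liver, with 192 CPM in free RNA. Its log2 ratio to control liver was -1.50 in iSuRe-Cre and -1.26 in iSuRe-HadCre, and it was -1.17 and -1.25 without the 3 cells, still past 2-fold. With HTODemux the same 2 ratios were -0.90 and 0.01, and in capillary-gated cells they were 0.18 and -0.75. The Slit2 log2 ratio of iSuRe-HadCre to iSuRe-Cre heart was 1.32, and it was 1.25 without the 3 cells and 0.66 with HTODemux. Slit3 stood at 36.5, 52.2 and 59.2 CPM in heart and 87.1, 65.2 and 79.7 CPM in liver, with 177 CPM in free RNA. Sema5a stood at 55.9, 31.2 and 67.4 CPM in heart and 87.1, 37.3 and 47.3 CPM in liver, with 147 CPM in free RNA. The Sema5a log2 ratio of iSuRe-Cre to control liver was -1.04, and -0.37 without the 3 cells. Sema3a, past 2-fold in no comparison, ranged from 38.5 CPM in control heart to 91.2 in iSuRe-HadCre liver under 138 CPM in free RNA. The 3 liver groups also differed in collagen-positive cells, which held 36.8%, 15.5% and 18.4% of their UMIs.

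**Figure D3:**
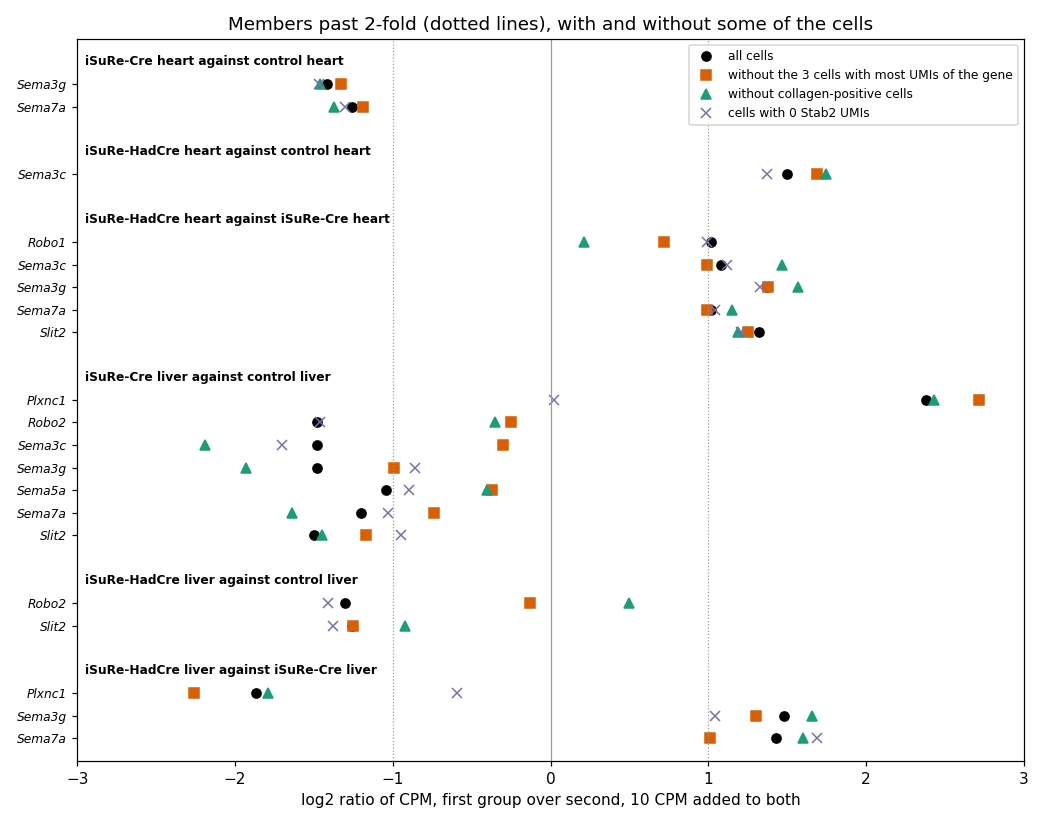
Each row is a member past 2-fold in a comparison between genotypes, and the horizontal axis gives its log2 ratio with 10 CPM added, for all Cdh5-positive cells and for 3 sets with some cells left out. Sema3g and Sema7a in iSuRe-Cre heart stay below -1 in all 4 sets, Plxnc1 in liver moves to 0.02 in cells with no Stab2 UMI, and Robo2 in liver moves towards or past 0 without a few cells.

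The genes were also followed across cell types. All 14348 barcodes that passed the quality limits were gated by marker UMIs into 4 endothelial and 10 other classes, of which most cells outside the endothelium carried no hashtag, so their organ is unknown. Endothelial classes needed at least 1 Cdh5 UMI, and the other classes had to have no UMI of Cdh5 or Pecam1. A low level of an endothelial gene in the other classes is therefore partly fixed by the gate. Without that limit in the other classes, 30 of 36 genes kept their highest class. A gene's highest level was taken over the classes with 20 or more of its UMIs, and of the 36 genes with such a class 13 were highest in an endothelial one. A shallow class can hardly reach 20 UMIs, so classes with a higher CPM were passed over for some genes. Robo3 counted as capillary at 0.928 CPM, with 1.23 CPM (19 UMIs) in mesenchymal-like cells. Ntn3 and Sema5b counted as mesenchymal at 12.7 and 17.2 CPM, with 27.8 CPM each (9 UMIs) in smooth-muscle-like cells. The numbers of genes per class, here and below, are not set against the shares of all features. Sinusoidal cells (489) had the highest level of 7 members, with Sema6a at 612 CPM and Plxnc1 at 435 CPM leading. Plxnc1 there was 6.54-fold (5.04 to 8.64) above the next class, the neutrophil-like cells at 66.5 CPM, while for Plxnd1 (302 CPM) the next class, large-vessel cells, did not differ beyond counting error (ratio 1.11, 0.948 to 1.3). For Plxna2 the ratio of sinusoidal to smooth-muscle-like cells was 1.1 (0.801 to 1.54), and for Sema4c that of sinusoidal to glia-like cells was 1.11 (0.725 to 1.77), so neither stood apart from a class outside the endothelium. Robo4 was 86.7 CPM in sinusoidal, 50.7 in capillary, 49.5 in large-vessel and 14 in endocardial cells, and at most 1.5 CPM in the 10 other classes.

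Large-vessel cells (69, gated by Gja5 and Vwf) were led by Sema6a at 402 and Plxnd1 at 273 CPM, and Ntn4 (139 CPM), Sema3g (81 CPM) and Sema3f (54 CPM) had their highest level there. Sema3g was 14.5 CPM in capillary and 1.61 CPM in sinusoidal cells. Capillary cells (2463) were led by Sema6a at 270 and Plxnd1 at 194 CPM, and Sema7a had its highest level there, 30.3 CPM, against 27 CPM in large-vessel and 3.82 CPM in sinusoidal cells. Endocardial cells (291, gated by Npr3) were led by Sema6a at 293 and Slit3 at 222 CPM. Of their 5 check markers 4 were over 2-fold above all cells, and the lowest stood at 0.375-fold. Of the 291 cells 223 carried no hashtag, and 2, 5 and 1 came from the 3 liver groups, so the name rests on the gate.

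Outside the endothelium, mesenchymal-like cells (826) had the highest level of 9 members. Robo2 at 581 and Robo1 at 579 CPM led there, with Sema3a at 370, Slit3 at 329, Slit2 at 327 and Sema5a at 284 CPM. These cells were gated on Col1a2 and Col3a1, the collagens used above to divide the Cdh5-positive cells. Of the members highest in mesenchymal-like cells, some did not stand apart from the next class beyond counting error. The ratio was 1.23 (0.911 to 1.7) over neuron-like cells for Slit2 and 1.15 (0.996 to 1.34) over glia-like cells for Slit3. It was 1.13 (0.854 to 1.51) for Sema5b and 1.01 (0.691 to 1.51) for Ntn3. Chondrocyte-like cells (145) were led by Robo1 at 401 and Robo2 at 392 CPM, held Sema6a at 289 CPM, next to 293 in endocardial cells, and had the highest Sema3c (191 CPM), Sema3d (108 CPM) and Sema3e (68.5 CPM). Keratinocyte-like cells (120) were led by Sema3a at 220 and Robo2 at 144 CPM. The 8 neuron-like cells were led by Robo2 at 606 and Sema6d at 495 CPM, with Robo2 not apart from mesenchymal-like cells beyond counting error (ratio 1.04, 0.845 to 1.27). Of these, 1 cell held 50 of the 98 Robo2 UMIs and 1 cell 51 of the 80 Sema6d UMIs, and with the gate minimums doubled Sema6d was highest in endocardial cells. The 32 glia-like cells were led by Plxna4 at 289 and Slit3 at 286 CPM. In 23 smooth-muscle-like cells Robo1 led at 377 CPM, followed by Sema5a and Robo2 at 204 CPM each, and Ntn1, a secreted netrin, had its highest level there at 71.1 CPM.

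Blood and liver cells held few of these UMIs. Macrophage-like cells (63) were led by Plxnb2 at 79.3 CPM and Sema4d, a ligand of the plexin-B receptors, at 61.8 CPM. Neutrophil-like cells (103) were led by Plxnc1 at 66.5 and Sema6a at 51.6 CPM, hepatocyte-like cells (39) by Robo1 at 205 and Sema4a at 29 CPM, and erythroid-like cells (35) by Sema4d at 13.2 and Plxna2 at 10.6 CPM. Of the neutrophil check markers 3 of 5 were over 2-fold, and in the 12 classes besides these and the endocardial cells all 5 were.

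**Figure D4:**
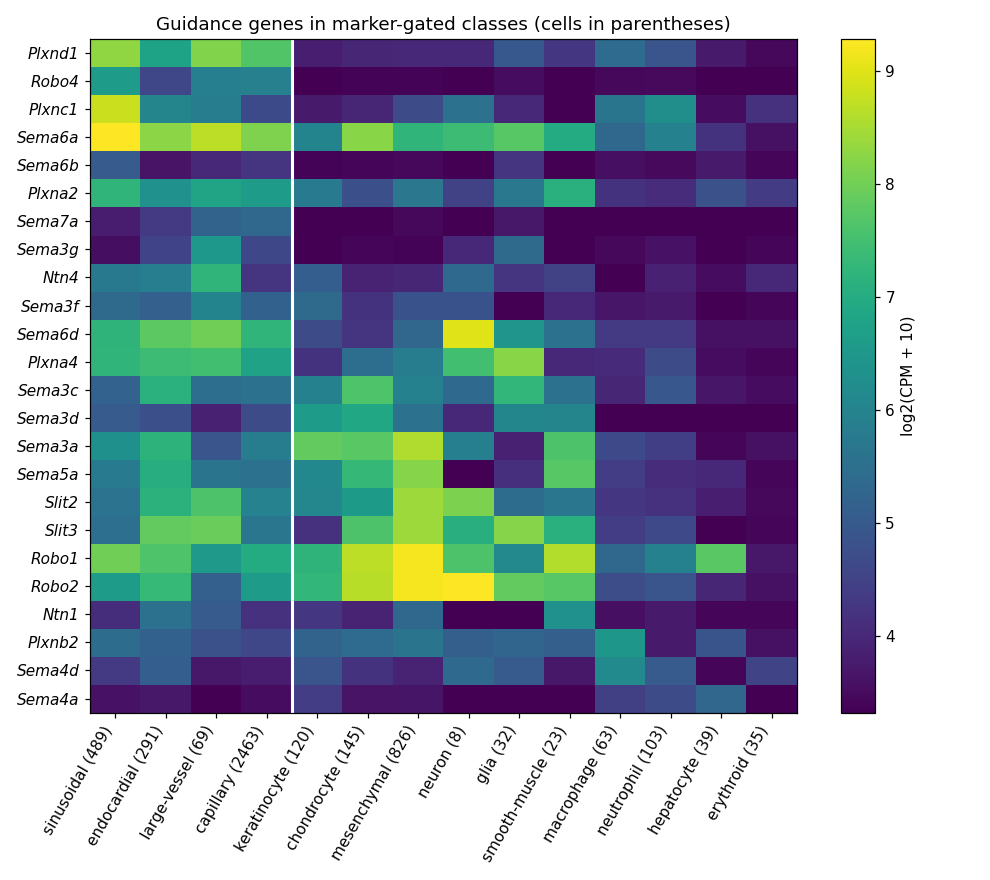
Colour gives log2 of CPM plus 10 for 24 members (rows) in the 14 marker-gated classes (columns, number of cells in parentheses, endothelial classes left of the white line). Plxnd1, Robo4, Sema7a and Plxnc1 are brightest on the endothelial side, and Robo1, Slit2, Slit3, Sema3a and Sema5a in mesenchymal-like cells.

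The receptors that work with these genes were measured beside them. Of 9 co-receptors and netrin receptors, 2 of 7 tested were past 2-fold lower in iSuRe-Cre heart, 1 of 7 higher in iSuRe-HadCre heart, 1 of 9 lower in iSuRe-Cre liver and 1 of 6 lower in iSuRe-HadCre liver, each against its control. The background of the same direction was 0.753%, 1.46%, 2.4% and 1.88% in these 4 comparisons, as given above, and such short lists hold too few genes to read against it. Nrp1, the co-receptor with the most UMIs, stood at 536, 429 and 620 CPM in heart and 478, 533 and 559 CPM in liver, with no ratio past 2-fold. Nrp2, the other neuropilin, stood at 351, 288 and 441 CPM in heart and 169, 297 and 210 CPM in liver. Dcc, a netrin receptor, was past 2-fold lower than control in 3 of 4 comparisons, but 560 of the 567 Dcc UMIs of control liver came from 1 cell, and 283 of control heart from 3. Unc5b, an endothelial netrin receptor named here after its values were seen, stood at 83.6, 24.9 and 67.1 CPM in heart and 28.6, 11.2 and 33.5 CPM in liver. Its iSuRe-Cre ratio to control was 0.297 (0.246 to 0.359) in heart, past 2-fold, and 0.392 (0.251 to 0.636) in liver, not past 2-fold with 10 CPM added. Over all gated cells Unc5b was at 9.05 CPM in sinusoidal and 36.8 CPM in capillary cells. The part of the sinusoidal cells in the liver ratio was not tested.

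Of 9 other guidance ligands, 1 of 8 tested was past 2-fold higher than control in iSuRe-HadCre heart (Ntng1, with 35.5 against 3.95 CPM and 42.3 CPM in free RNA), against a background of 1.46%, and none in the other 3 comparisons with control. The ligands with the most UMIs, Flrt2, Vegfa and Rgmb, were at 80 to 140, 28.9 to 39.4 and 18.6 to 29 CPM over the 6 groups. Of 23 signalling partners, 1 of 23 was past 2-fold lower in iSuRe-Cre heart (background 0.753%), 0 of 22 in either direction in iSuRe-HadCre heart (1.66%), 4 of 23 lower in iSuRe-Cre liver (2.4%) and 0 of 20 in iSuRe-HadCre liver (3.45%). Rac1, Arhgef12 and Srgap2, a GTPase and regulators of such GTPases that act on the cytoskeleton below plexins and Robos, had the most UMIs, at 279 to 328, 239 to 421 and 193 to 287 CPM. Ablim1, an actin-binding protein, was lower than control in both iSuRe-Cre groups, at 199 against 592 CPM in heart (ratio 0.336, 0.314 to 0.359) and 60 against 221 CPM in liver (ratio 0.272, 0.23 to 0.322), while iSuRe-HadCre stood at 430 and 176 CPM. Over all gated cells Ablim1 was at 25.6 CPM in sinusoidal and 272 CPM in capillary cells, and the part of the sinusoidal cells in its liver ratio was not tested. The median log2 ratio to control of the 23 partners lay between -0.10 and 0.22 in the 4 comparisons.

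The remaining members were low. Sema4c (31.3 to 40 CPM over the 6 groups), Sema3f (24.7 to 52), Plxnb2 (10.3 to 29.7), Plxna1 (10.8 to 14.3), Sema6b (6.25 to 17) and Ntn1 (9.46 to 16.7) were past 2-fold in no comparison. Sema4d, Sema4b, Sema5b, Plxnb1, Ntn3, Sema3e, Sema4g, Sema6c, Plxna3, Sema3b and Robo3 were each at 14.3 CPM or less in every group. Sema3e, the ligand of Plxnd1, was at 1.65 to 5.97 CPM in endothelial cells and 18.4 CPM in free RNA. Sema4a had 0 UMIs in control heart, where 3 UMIs would be 0.987 CPM, 0 in iSuRe-HadCre liver, where they would be 3.46 CPM, and at most 3.58 CPM elsewhere.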

How the data were processed

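Gene and hashtag UMI counts of 1 droplet library were used as the authors deposited them, as raw counts from Cell Ranger 7.1.0 with a GRCm38 genome and Ensembl 98 genes to which transgene sequences had been added. The deposited matrix held 2755147 barcodes. Those with more than 2000 and fewer than 75000 gene UMIs, more than 500 genes, and mitochondrial and haemoglobin shares below 5% each were kept (14348). A hashtag was called at 25 UMIs, or 140 for that of iSuRe-Cre liver; 2391 barcodes carried exactly 1 and 186 carried 2 or more, which were dropped as doublets. No other doublet caller was run, and doublets within a group remain. A further 7 tag features, to which the labels assign no group, were left out. The study itself called hashtags with HTODemux and removed cells low in normalized Cdh5 (limit 0.9) and WPRE (limit 0.5). The main groups here did not use these rules. HTODemux gave 713 control heart and 254 control liver cells, against 255 and 61 here. Of the iSuRe-Cre cells used here, 145 of 437 in heart and 391 of 903 in liver passed the WPRE limit.

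Counts were summed over the Cdh5-positive cells of each group and scaled to 1000000 UMIs (CPM). Each group was 1 sample, so no test was run. Intervals are exact, at 95%, and treat UMIs as independent, which they are not where a few cells hold many. The members and the gene lists were chosen with earlier results of these data known. Named were the 14 members with most UMIs, up to 4 members past 2-fold in each comparison, the 2 leading members of each class, and, of each pathway list, the 3 genes with most UMIs and those past 2-fold in 2 or more comparisons with control. Comparison and class alternatives (7 and 3 planned) covered scaling, the minimum of 20 UMIs, HTODemux calls, the Cdh5 and WPRE criteria, the CPM added, the weight of cells and the gates; 4 others, on subsets of cells, were chosen after seeing the data. Python 3.11.15, numpy 2.4.6, scipy 1.17.1, pandas 2.3.3, matplotlib 3.10.9, R 4.3.3 and Seurat 5.3.0 were used, and the counting of fold differences was tested on simulated data.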

Additional observations from a re-analysis of the deposited data

Results flagged for a closer look

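In 4 cases a member past 2-fold against control in at least 1 organ moved one way in heart and the other way in liver. Each of these ratios had an interval that left out 1. Members past 2-fold in neither organ, such as Robo4 in iSuRe-Cre (ratios given above), were not counted. This count is not set against the share of all features that did so. The difference between organs was not tested, since each group was 1 sample. Under some alternatives given in the next section, Sema3c in iSuRe-HadCre heart and Robo2 and Slit2 in iSuRe-HadCre liver turned sign. Sema3c was 1.59-fold control (1.12 to 2.28) in iSuRe-Cre heart and 0.297-fold (0.233 to 0.381) in iSuRe-Cre liver. In iSuRe-HadCre it was 4.19-fold (2.98 to 6.03) in heart and 0.556-fold (0.385 to 0.796) in liver. Robo2 was 1.44-fold control (1.21 to 1.72) in iSuRe-HadCre heart and 0.388-fold (0.309 to 0.485) in iSuRe-HadCre liver. Slit2 was 1.99-fold control (1.64 to 2.41) in iSuRe-HadCre heart and 0.388-fold (0.289 to 0.516) in iSuRe-HadCre liver. In control liver 3 cells held 70.1% of the Sema3c UMIs and 71.7% of the Robo2 UMIs, and in control heart 3 cells held 65.6% of the Slit2 UMIs.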

How the results depend on the processing

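No paired analysis was possible because each group was 1 sample, so that no replicate could be paired or left out. Of 59 recomputed planned counts, 44 stayed within 1.5 times the count in the report. The share past 2-fold among all features tested under the same setting stands after each set of counts, in the same order. With 1 CPM added the counts were 4 (2 in the report) for iSuRe-Cre heart against control, 3 (1) for iSuRe-HadCre heart against control, 11 (5) and 6 (3) for iSuRe-HadCre against iSuRe-Cre in heart and liver, and 10 (6) for iSuRe-Cre liver against heart (7.42%, 7.05%, 9.15%, 12.6% and 13.3%). With HTODemux calls they were 0, 1, 1, 5 and 3 for iSuRe-HadCre heart and liver against control, iSuRe-HadCre against iSuRe-Cre heart and liver, and control liver against heart, in place of 1, 2, 5, 3 and 8 (0.489%, 1.27%, 1.7%, 3.52% and 2.02%). As the mean over cells they were 4, 2, 1 and 3 for iSuRe-Cre heart, iSuRe-HadCre heart and iSuRe-HadCre liver against control and iSuRe-HadCre against iSuRe-Cre heart, in place of 2, 1, 2 and 5 (2.91%, 0.913%, 4.08% and 2.68%), and with size factors the last was 2 (1.98%). Of the alternatives chosen after seeing the data, capillary-gated cells gave 3, 3, 10 and 2 for iSuRe-HadCre heart against control, iSuRe-HadCre against iSuRe-Cre heart and liver, and control liver against heart (1.91%, 2.75%, 10.4% and 10.3%). Cells with 0 Stab2 UMIs gave 2, 3 and 3 for iSuRe-HadCre heart and iSuRe-Cre liver against control and iSuRe-Cre liver against heart (1.95%, 3.68% and 5.01%). Without 3 cells of each group iSuRe-HadCre heart gave 2 against control and 2 against iSuRe-Cre (1.36% and 1.72%), and without collagen-positive cells iSuRe-HadCre heart against control gave 2 and iSuRe-Cre liver against heart 10 (2.17% and 6.42%). Log2 ratios turned sign with HTODemux for Sema3c in iSuRe-HadCre heart (-0.39), Slit2 in iSuRe-HadCre liver (0.01) and Sema3c in control liver against heart (-0.06). They did so in capillary-gated cells for Robo2 (1.67) and Slit2 (0.18) in iSuRe-Cre liver, Robo2 in iSuRe-HadCre liver (0.53), and Robo1 (-0.67) and Slit3 (-0.11) in control liver against heart, and without collagen-positive cells for Robo2 in iSuRe-HadCre liver (0.50). The causes were not tested. The number of members highest in an endothelial class was 13, and 12 to 14 under the 3 class alternatives. Control liver held 838074 UMIs from 61 cells, which limits the comparisons that use it.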
